A study of Mus musculus with 15 samples.

Results

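The Ifit cluster on mouse chromosome 19 was examined in chromatin profiles of bone marrow-derived macrophages (BMDMs) with and without the genes for histone H3.3. Its members were chosen by name, as the 5 genes Ifit1, Ifit2, Ifit3, Ifit3b and Ifit1bl1 among 21938 protein-coding genes. Regions enriched for acetylation of histone H3 at lysine 27 (H3K27ac) covered 20.5 ± 0.622 kb of the cluster in H3.3 conditional knockout (cKO) cells and 7.06 ± 0.632 kb in WT cells (SD, n = 2 libraries each). Regions of trimethylation at lysine 36 (H3K36me3) covered 19.1 ± 4.25 kb in cKO and 3.80 ± 0.587 kb in WT. At Ifit2, Ifit3, Ifit3b and Ifit1 the called length of both marks was higher in both cKO libraries than in both WT libraries. Ifit1bl1 differed from the others, with no H3K36me3 region in any library and overlapping H3K27ac values.

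Ifit genes encode interferon-induced proteins with tetratricopeptide repeats, which bind viral RNA or each other and limit viral translation and replication. They are switched on by type I interferon, whose receptor activates transcription factors through kinases of the JAK family. Interferon regulatory factors and their partners bind short elements in their promoters, and in unstimulated macrophages the genes are held at low output. H3K27ac marks active promoters and enhancers, and H3K36me3 is laid down over the bodies of genes as they are transcribed, rising toward their ends.

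Both marks were profiled by CUT&RUN, where a nuclease tethered to an antibody cuts out the bound chromatin for sequencing. WT cells were H3f3a fl/fl H3f3b fl/fl without Cre. H3.3 cKO cells carried the same floxed alleles with LysM-cre/cre, a Cre driven from the myeloid gene Lyz2, so that the comparison of genotypes included Cre itself. A further set of cells carried an HA tag on H3f3b, one of the H3.3 genes, and was profiled with an anti-HA antibody (H3.3-HA). All mice were C57BL/6, young adult and of both sexes, and the cells were grown with L929-conditioned medium for 6 to 8 days with no stimulus named. The authors described the deletion of H3f3b as variable among cKO samples profiled for RNA, so cKO cultures may retain some H3.3. They also reported depletion of H3.3 RNA and, by western blot, of H3.3 protein in cKO BMDMs. Replicates were labelled biological, and nothing tied a replicate number to a shared mouse or day.

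Each of the 10 libraries, 2 per group, was represented by a list of called regions with a start and an end and no height. Total tags lay between 16444864 and 29988098 for H3K27ac, between 14027132 and 23782914 for H3K36me3, and at 6951296 and 5365319 for H3.3-HA. Both cKO H3K36me3 libraries held more tags than both WT libraries, and the part of this depth in the results was not tested. In cKO H3K36me3 replicate 1 only 19.34% of tags lay in regions, against 46.54% to 50.24% in the other 3 H3K36me3 libraries. The floxed exon of H3f3a carried no region in any library, and exons 1 and 4 of H3f3b carried H3K27ac regions in 2 of 2 cKO and 0 of 2 WT libraries, so the lists do not show the deletion and genotypes are given as labelled. Of 8 macrophage marker genes, 7 or 8 had an H3K27ac region in each library, and their summed called length was 73.8 to 97.9 kb in WT and 55.4 to 60.9 kb in cKO. No T cell or fibroblast marker had a region of either mark. Of 5 neutrophil markers, Elane and Mpo had H3K27ac regions, with 1 or 2 of these genes in each library and a summed length of 1.11 and 0.501 kb in WT and 1.00 and 1.65 kb in cKO, while Ly6g, S100a8 and S100a9 had none. Of 3 B cell markers, 1 or 2 had an H3K27ac region in each library, with a summed length of 4.57 and 4.73 kb in WT and 3.16 and 6.72 kb in cKO. The part of other cell types in the results was not tested. A mark present in more cells and a stronger mark in the same cells cannot be told apart in such bulk lists.

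The cluster was taken from 5 kb before Ifit2 to 5 kb past Ifit1, chr19:34545694-34655009 on mm10 (109.316 kb). Along the plus strand lie Ifit2 (34550694 to 34576419), Ifit3 (34583531 to 34588731), Ifit3b (34607970 to 34613401) and Ifit1 (34640871 to 34650009). Ifit1bl1 (34592891 to 34601956) lies on the minus strand between Ifit3 and Ifit3b. A sixth gene of the family, Ifit1bl2 (34617049 to 34640743, minus strand), starts 127 bases before Ifit1 and faces away from it, so that both share a promoter. Every member has a short first exon and a long last exon, which in Ifit3 measure 74 and 1671 bp.

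The sequences shown first hold matches to a short element, and each match lay in H3K27ac regions of some or all libraries. They are the 200 bases before the RefSeq start sites (build GRCm38.p6) of Ifit3 (chr19:34583329-34583528, plus strand), Ifit3b (chr19:34607757-34607956, plus strand), Ifit1 (chr19:34640689-34640888, plus strand) and the first and second start of Ifit1bl1 (chr19:34601969-34602168 and chr19:34599428-34599627, minus strand), and 116 bases of the first intron of Ifit2 (chr19:34553625-34553740, plus strand). Capitals mark matches to GAAANNGAAA on either strand, the repeated core of interferon-stimulated response elements. The Ifit2 stretch was chosen because its matches lay in regions of both H3.3-HA libraries. The sequence before the Ifit2 start site, which holds no match, is not shown.

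Ifit3: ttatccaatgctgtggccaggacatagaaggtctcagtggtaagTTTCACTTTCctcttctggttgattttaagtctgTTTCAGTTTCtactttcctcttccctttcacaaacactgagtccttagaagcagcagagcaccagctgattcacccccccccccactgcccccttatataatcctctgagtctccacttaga
Ifit3b: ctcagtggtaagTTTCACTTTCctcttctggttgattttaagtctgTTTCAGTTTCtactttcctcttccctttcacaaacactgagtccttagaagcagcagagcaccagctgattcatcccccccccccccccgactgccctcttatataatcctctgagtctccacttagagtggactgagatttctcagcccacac
Ifit1: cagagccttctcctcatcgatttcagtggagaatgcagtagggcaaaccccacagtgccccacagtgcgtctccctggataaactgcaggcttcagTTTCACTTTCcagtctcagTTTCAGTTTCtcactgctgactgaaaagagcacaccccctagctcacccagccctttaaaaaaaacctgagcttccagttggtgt
Ifit1bl1, first start: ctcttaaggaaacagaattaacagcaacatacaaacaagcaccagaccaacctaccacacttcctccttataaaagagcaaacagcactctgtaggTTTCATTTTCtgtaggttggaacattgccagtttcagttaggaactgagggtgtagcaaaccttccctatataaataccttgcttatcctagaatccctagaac
Ifit1bl1, second start: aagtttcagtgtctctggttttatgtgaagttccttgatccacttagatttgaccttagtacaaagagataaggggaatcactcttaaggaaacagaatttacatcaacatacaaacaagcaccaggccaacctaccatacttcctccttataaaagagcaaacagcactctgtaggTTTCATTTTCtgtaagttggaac
Ifit2, first intron: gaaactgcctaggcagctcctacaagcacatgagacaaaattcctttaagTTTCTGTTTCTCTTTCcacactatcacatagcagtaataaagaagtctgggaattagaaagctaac

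Ifit3, Ifit3b and Ifit1 each held the same pair of core matches in the same order, TTTCACTTTC followed by TTTCAGTTTC. The first base of the first match lay 156 bases before the start site in Ifit3, 188 in Ifit3b and 104 in Ifit1. Of all 32851 RefSeq promoter windows of 300 bases, 3.44% held at least 1 match and 0.225% held at least 2. Ifit1bl1 held 1 match before each of its start sites. The RefSeq promoter window of Ifit2 held none, and the 2 overlapping matches shown for Ifit2 begin 2981 bases into the gene, in an intron. A match describes letters and not a bound site.

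The cluster is also rich in copies of itself, which limits how reads can be placed. The promoter windows of Ifit3 and Ifit3b were identical at 258 of 260 aligned bases, and those of the first and second start of Ifit1bl1 at 194 of 219. Of all 25-base stretches in the gene body, only 35.9% in Ifit3 and 37.0% in Ifit3b occurred once in the genome, against 87.5% in Ifit2, 92.5% in Ifit1 and 62.6% in Ifit1bl1. Of the stretches in Ifit3, 63.5% were found in Ifit3b. Reads were 25 bp from each end of a fragment, so values of Ifit3 and Ifit3b are uncertain as to which copy they came from, whereas Ifit2 and Ifit1 are mostly free of this limit.

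**Figure D1:**
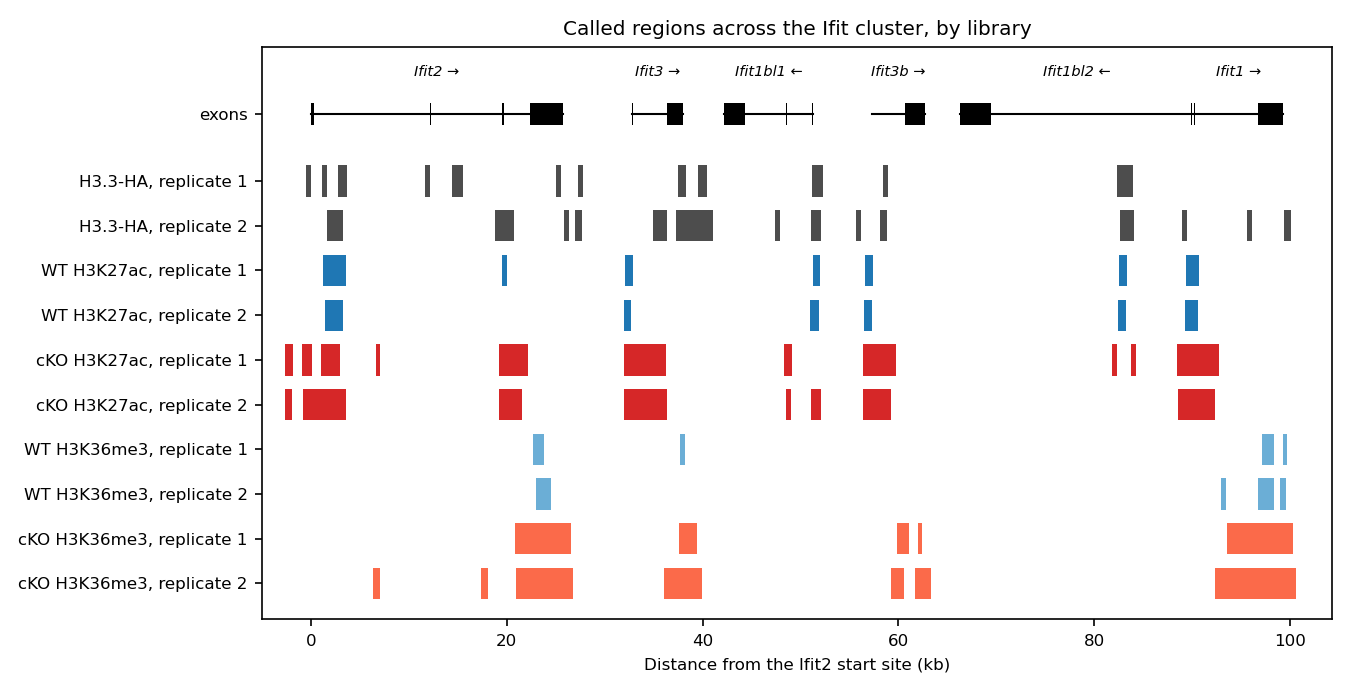
Called regions in each of the 10 libraries (rows) across the cluster, against distance from the Ifit2 start site in kb, with exons in black and arrows giving the direction of transcription. The cKO H3K27ac regions at Ifit3, Ifit3b and Ifit1 begin near the WT regions and run further, and the cKO H3K36me3 regions cover the ends of Ifit2 and Ifit1.

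Over the whole interval, H3K27ac regions covered 7.50 and 6.61 kb in the WT libraries and 20.9 and 20.0 kb in the cKO libraries. The cKO mean was 2.90 times the WT mean, a difference of 13.4 kb that exceeded the SD of either group. The two-sided exact permutation p was 0.333, the smallest that 2 against 2 libraries allow. Across the genome the direction was opposite, since H3K27ac regions covered 89.6 and 74.8 Mb in WT and 46.2 and 62.0 Mb in cKO. The share of H3K27ac tags in regions was also lower in cKO, at 11.81% and 17.84% against 24.09% and 21.52% in WT. The part of this in the genome-wide lengths was not tested.

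H3K36me3 regions covered 3.38 and 4.21 kb of the interval in WT and 16.1 and 22.2 kb in cKO, which is 5.04 times as much on the means. The difference was 15.3 kb (exact permutation p = 0.333), and without cKO replicate 1, the library with few tags in regions, it was 18.4 kb. The groups did not overlap for either mark. Genome-wide, H3K36me3 regions covered 164 and 170 Mb in WT and 90.7 and 163 Mb in cKO.

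Per gene, the called length was measured over the body plus 5 kb upstream, the window. For H3K27ac, 4 of 5 members were higher in both cKO libraries than in both WT libraries and 0 were lower, while of 12767 genes with a region 17.4% were higher and 38.2% lower. For H3K36me3, 4 of the 4 members with a region were higher and 0 lower, against 7.85% higher and 37.7% lower among 11975 genes. At Ifit3 this call rests on 397 bp in cKO replicate 1 against 332 bp in WT replicate 1. The same 4 members (Ifit2, Ifit3, Ifit3b and Ifit1) were higher for both marks, which held for 2.57% of the 10774 genes with regions of both.

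No member's window held H3K27ac in both cKO and no WT library, or the reverse, against 3.63% and 3.79% of genes. This call takes the window as a whole, and single regions called in cKO alone lay in the windows of Ifit2 and Ifit1bl1. Ifit3b alone among the members had H3K36me3 in both cKO and no WT library, a pattern of 1.22% of genes, and none had the reverse, which 2.96% did.

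The median difference over the 5 members was 19.1 percentage points of the window for H3K27ac, beside -1.02 over all genes tested. Over the 4 members tested for H3K36me3 it was 16.5 points, beside -4.99. In order of the H3K27ac difference among 12767 genes, Ifit3 was 47, Ifit3b 205, Ifit1 285, Ifit2 416 and Ifit1bl1 3011. For H3K36me3 among 11975 genes, Ifit1 was 44, Ifit3b 182, Ifit2 366 and Ifit3 574. By share of the window, Ifit3 thus led the members for H3K27ac and Ifit1 for H3K36me3. In called length the H3K27ac difference was larger at Ifit2 (4915 bp) than at Ifit3 (3541.5 bp). For H3K36me3 it was largest at Ifit1 on this scale too (4460.5 bp).

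**Figure D2:**
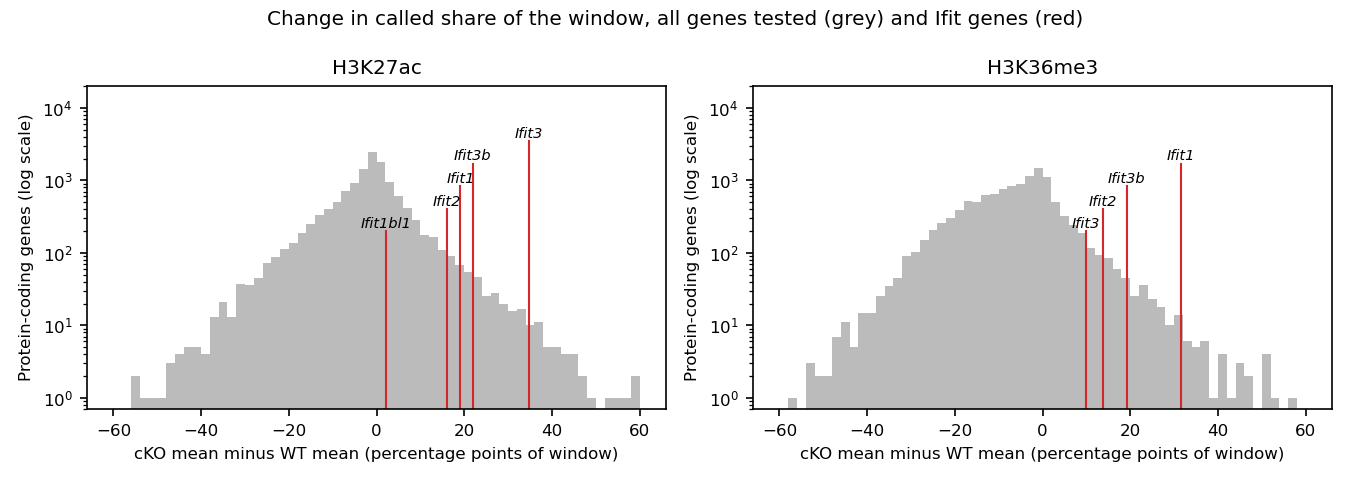
Histograms of the cKO mean minus the WT mean in percentage points of the window, for all protein-coding genes with a region of the mark (grey, log count axis) and the Ifit genes (red lines). Genes beyond 60 points, 5 for H3K27ac and 8 for H3K36me3, are not drawn, and Ifit3 stands at 34.7 points for H3K27ac and Ifit1 at 31.5 for H3K36me3.

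Ifit1 encodes the sensor of the family, which binds viral RNA whose cap lacks methylation and keeps it from being translated. H3K27ac regions covered 1367 and 1265 bp of its window in WT and 4305 and 3739 bp in cKO. The share of the window was 9.31% ± 0.510 for WT cells and 28.4% ± 2.83 for cKO cells (SD, n = 2 libraries each; exact permutation p = 0.333). All 4 libraries had a region across the start site, which it shares with Ifit1bl2. That region ended 562 and 432 bp inside Ifit1 in WT and 2602 and 2156 bp inside in cKO. On the other side it began 804 and 832 bp before the start in WT and 1702 and 1582 bp before it in cKO, so it was longer toward both genes.

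H3K36me3 regions covered 1354 and 2448 bp of the Ifit1 window in WT and 5729 and 6994 bp in cKO, all inside the gene body. This was 20.8% ± 8.46 of the body in WT and 69.6% ± 9.79 in cKO. In WT the mark was called in separate pieces over the last exon and across the end of the gene, which it passed by 448 and 300 bp, and replicate 2 had a further piece in the intron. In both cKO libraries 1 unbroken region ran from the intron over the whole last exon and 1065 and 1343 bp past the end of the gene. The last exon was covered to 53.3% and 76.7% in WT and to 100% in both cKO libraries. Of the bases called in both cKO libraries but not in WT, 3205 lay in 1 stretch of the Ifit1 intron, where 98.3% of 25-base stretches occur once in the genome.

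Ifit2 encodes a partner of Ifit1 and Ifit3 proteins that binds AU-rich RNA. H3K27ac regions covered 2947 and 1916 bp of its window in WT and 7137 and 7556 bp in cKO, or 7.91% ± 2.37 and 23.9% ± 0.964 of the window. Neither WT library had a region within 1 kb of the start site, the nearest lying 1175 and 1382 bp away in the first intron. In both cKO libraries a region covered the start site, from 894 bp before to 146 bp after it in replicate 1 and from 812 bp before to 3567 bp after it in replicate 2. The intronic place was called in all 4 libraries and the start site in the cKO libraries alone.

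The core matches printed for Ifit2 lay inside this intronic H3K27ac region in both WT libraries and cKO replicate 2, and outside it in cKO replicate 1. They also lay inside an H3.3-HA region in both H3.3-HA libraries. A further region 5′ of Ifit2 (chr19:34548000-34548816) was called at 770 and 798 bp in cKO and not in WT. Further into the gene, a region over an internal exon (chr19:34569869-34572820) measured 2949 and 2378 bp in cKO, 501 bp in WT replicate 1, and was not called in WT replicate 2.

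H3K36me3 lay over the last part of Ifit2 in all 4 libraries, and cKO replicate 2 had 2 further regions in its introns, of 677 and 668 bp. Over the body it covered 1080 and 1465 bp in WT and 4894 and 6128 bp in cKO, which is 4.95% ± 1.06 and 21.4% ± 3.39 of the body (exact permutation p = 0.333). The last exon, 3353 bp long, was covered to 32.2% and 43.7% in WT and to 100% in both cKO libraries. The cKO regions reached 874 and 993 bp past the end of the gene and the WT regions did not reach it.

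Ifit3 encodes a scaffold of the IFIT complex, and Ifit3b a near-identical copy of it. For Ifit3, H3K27ac regions covered 843 and 761 bp of the window in WT and 4300 and 4387 bp in cKO. In WT they ended 37 bp after and 99 bp before the start site, and in cKO they ran on to 3469 and 3519 bp inside the gene, close to the start of the last exon. Of the body, 0.365% ± 0.517 was covered in WT and 67.2% ± 0.680 in cKO. The part 5′ of the start site hardly differed, at 805 and 761 bp in WT and 830 and 867 bp in cKO.

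Ifit3b showed the same form at its own start site, with 828 and 848 bp in WT and 3420 and 2822 bp in cKO. Its regions ended 132 and 40 bp inside the gene in WT and 2533 and 1942 bp inside in cKO. Of the body, 1.60% ± 1.20 was covered in WT and 41.2% ± 7.69 in cKO (exact permutation p = 0.333). Of the 25-base stretches in the merged H3K27ac region, only 35.0% at Ifit3 and 31.5% at Ifit3b occurred once in the genome, and whether both copies carried the longer mark was not tested.

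H3K36me3 at Ifit3 was the least even of the called differences between replicates. In the window it covered 332 bp in WT replicate 1, none in WT replicate 2, and 397 and 1946 bp in cKO. As a share of the window this was 1.63% ± 2.3 in WT and 11.5% ± 10.7 in cKO, so the difference of 9.86 points was smaller than the SD of the cKO group. The last exon was covered to 19.9% and 0% in WT and to 23.8% and 100% in cKO. The cKO regions continued 1431 and 1898 bp past the end of the gene, where the WT region of replicate 1 continued for 169 bp.

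At Ifit3b, H3K36me3 was called in neither WT library and at 1749 and 2260 bp in cKO. This was 36.9% ± 6.65 of the body, and 45.9% and 49.0% of the last exon. Each cKO library had 2 separate regions there. Without WT replicate 1, Ifit3 would also count as marked in cKO alone, so the number of such members rests on that library's single 501 bp region.

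**Figure D3:**
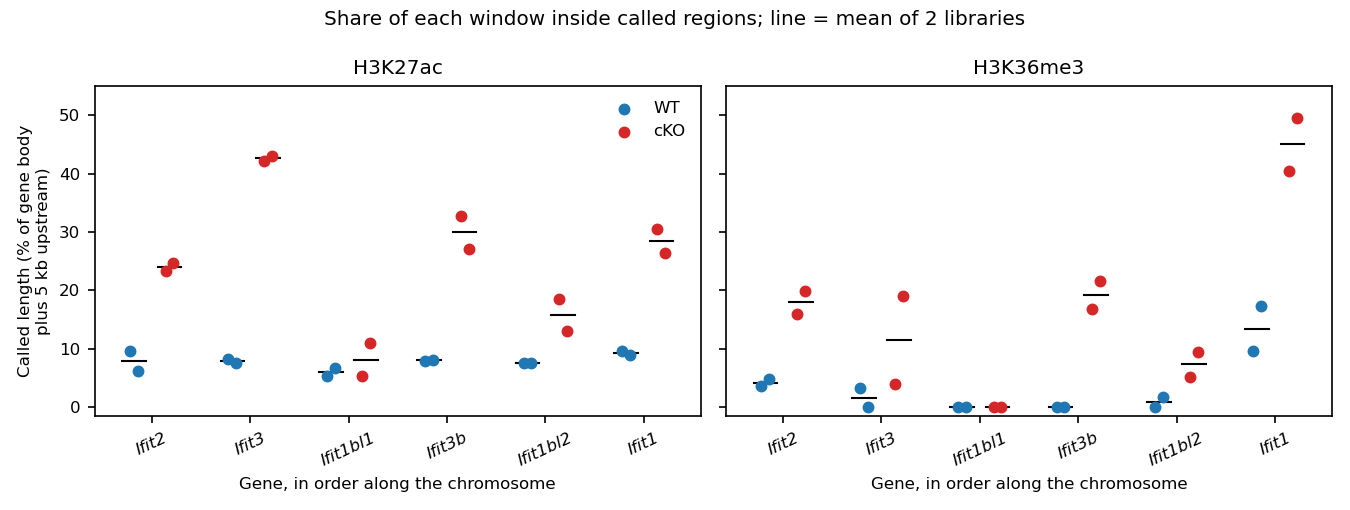
Called length as a percent of the window (gene body plus 5 kb upstream) for each gene and library, with H3K27ac on the left and H3K36me3 on the right, WT in blue, cKO in red and a line at the mean of 2 libraries. WT and cKO points do not overlap for either mark at Ifit2, Ifit3, Ifit3b and Ifit1, and overlap at Ifit1bl1. For H3K36me3 at Ifit3 they nearly touch, at 3.25% in WT replicate 1 and 3.89% in cKO replicate 1.

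Ifit1bl1 encodes a protein related to Ifit1 and has start sites 2629 bp apart in GENCODE. These positions, 34601956 and 34599327, are used for the regions below. The printed sequences instead precede the RefSeq starts at 34601968 and 34599427. H3K27ac regions covered 738 and 931 bp of its window in WT and 752 and 1532 bp in cKO, or 5.93% ± 0.970 and 8.12% ± 3.92, and the groups overlapped (exact permutation p = 0.667). The places of the regions differed. The first start site was inside a region in both WT libraries and in cKO replicate 2, and not in cKO replicate 1. The second start site was inside a region in both cKO libraries and in neither WT library.

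Over the body alone, without the 5 kb upstream, Ifit1bl1 was 1.51% ± 1.74 in WT and 7.90% ± 0.554 in cKO, and the groups did not overlap. The region at the second start (chr19:34599063-34599814) consisted of repeated sequence, with 21.3% of 25-base stretches occurring once in the genome and 37.2% found again in the region at the first start. Whether its reads came from the one place or the other was not tested. No H3K36me3 region was called in the window of Ifit1bl1 in any of the 4 libraries, and none in the body of Ifit1bl2. The window of Ifit1bl2 counted as higher for H3K36me3 only where its 5 kb upstream overlap Ifit1.

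At the start sites, 3 members (Ifit3, Ifit3b and Ifit1) had an H3K27ac region within 1 kb in all 4 libraries. In 3 of these 3 the region ended further inside the gene in both cKO libraries than in both WT libraries, against 26.6% of 4873 such genes, a comparison added after the regions had been seen. Leaving out any of the 4 libraries left the count at 3. This outcome was fixed by the rule, since removing a library cannot make separate groups overlap. Ifit2 and Ifit1bl1 could not enter it, since Ifit2 lacked a region there in WT and Ifit1bl1 in cKO replicate 1.

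**Figure D4:**
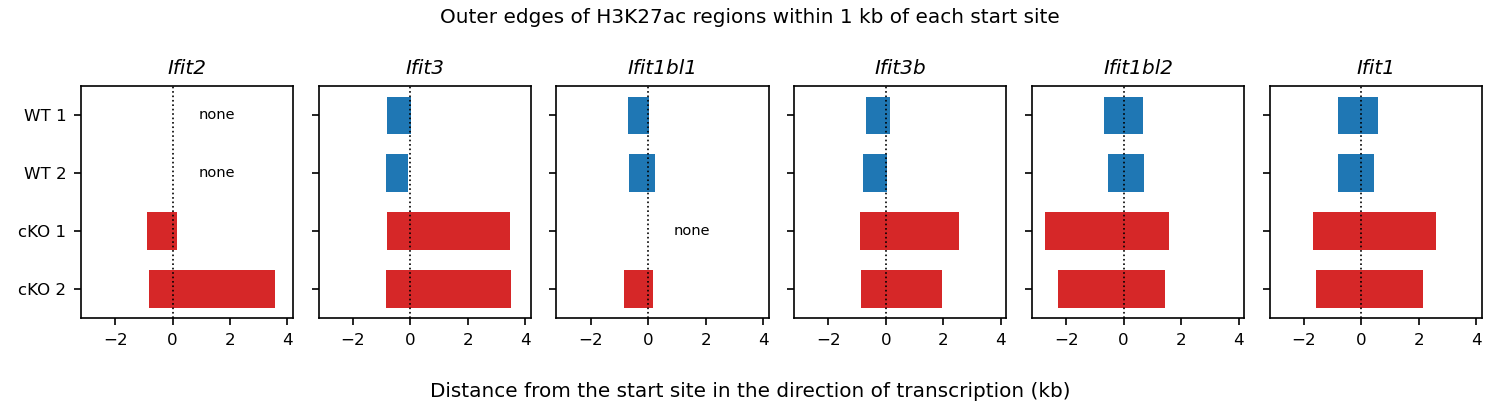
Outer edges of the H3K27ac regions within 1 kb of each start site, in kb in the direction of transcription, with a dotted line at the start site and 1 bar per library (WT blue, cKO red). In Ifit3 the WT bars stop near the start site and the cKO bars reach 3469 and 3519 bp.

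By group means within the last exon, H3K36me3 distinguished 3 kinds of members. Ifit2 and Ifit1 were partly covered in WT (means 38.0% and 65.0%) and wholly covered in cKO. Ifit3 and Ifit3b had a mean of 9.93% ± 14.0 and 0% in WT and of 61.9% ± 53.9 and 47.4% ± 2.15 in cKO (SD). Of the 25-base stretches in their last exons, only 33.6% at Ifit3 and 38.2% at Ifit3b occurred once in the genome. Ifit1bl1 had none in any library. H3K27ac covered no last exon in any library.

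**Figure D5:**
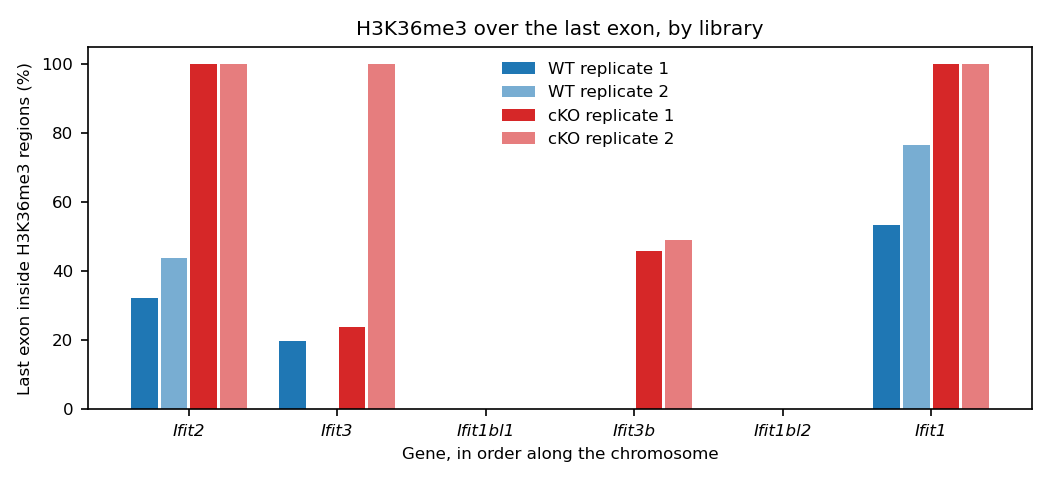
Percent of each gene's last exon inside H3K36me3 regions, 1 bar per library (WT blue, cKO red, replicate 2 paler). Ifit2 and Ifit1 reach 100% in both cKO libraries, Ifit3 in cKO replicate 2, and Ifit1bl1 and Ifit1bl2 have no bar.

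Counted by base, 4.23 kb of the interval lay in H3K27ac regions in all 4 libraries, 11.9 kb in both cKO libraries but not in WT, and 0.760 kb the other way. Of the 11.9 kb, 8.74 kb belonged to merged regions that all 4 libraries shared. The WT stretch was a single place in an intron of Ifit1bl2 (chr19:34633239-34633998). For H3K36me3 the lengths were 2.39 kb in all 4, 10.8 kb in cKO alone and none in WT alone. The longest stretches called in cKO alone were 3432 bp in Ifit3 for H3K27ac and 3205 bp in Ifit1 for H3K36me3.

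Apart from the 127 bases between Ifit1bl2 and Ifit1, the space between genes was mostly without H3K27ac or H3K36me3 regions. From Ifit1bl1 to Ifit3b (6013 bp) H3K27ac covered 23.4% and 24.8% in WT and 14.7% and 28.8% in cKO. From Ifit3 to Ifit1bl1 (4159 bp) H3K36me3 covered 34.4% and 45.6% in cKO and 4.06% and 0% in WT, the continuation of the regions at the end of Ifit3. No H3K27ac region lay in that space or in the space between Ifit3b and Ifit1bl2 in any library. In the 5 kb before Ifit2, H3K27ac covered 33.3% and 32.2% in cKO and 0% in both WT libraries. H3.3-HA regions covered 27.6% and 73.0% of the space from Ifit3 to Ifit1bl1.

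H3.3-HA marked where the histone variant lay in cells that retained it. Regions were called in both H3.3-HA libraries in the windows of 4 of 5 members, all but Ifit1, against 44.2% of all 21938 genes. Of 19 merged H3.3-HA regions in the interval, 6 were found in both libraries and 13 in 1, so the replicates often differed here. They covered 9.52 and 15.98 kb.

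The 6 shared regions lay in the first intron of Ifit2, past the end of Ifit2, at and past the end of Ifit3, over the first start of Ifit1bl1, in the intron of Ifit3b, and in an intron of Ifit1bl2. Of the 25-base stretches in these regions, only 27.4% at Ifit3b and 53.0% at Ifit3 occurred once in the genome. Ifit1bl1 was the only member whose start site was inside H3.3-HA regions of both libraries, which ran from 1039 bp before to 127 bp after it in replicate 1 and from 880 bp before to 185 bp after it in replicate 2. At Ifit3 the nearest H3.3-HA region to the start site was 4658 and 2114 bp away. In Ifit1, replicate 1 had no region in the window and replicate 2 had 1002 bp.

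Bases in both H3.3-HA libraries made up 4.97% of the interval. They made up 3.79% of the H3K27ac bases called in cKO alone, 4.97% of those called in all 4 libraries and 91.3% of the 760 called in WT alone. Those 760 bases were a single place in an intron of Ifit1bl2, which is not a member. Of the H3K36me3 bases called in cKO alone, bases in both H3.3-HA libraries made up 1.38%. The H3.3-HA cells came from other mice than the WT and cKO cells, so these are positions side by side and not a joint measurement.

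The core of the response element occurred 24 times in the interval. H3K27ac regions held 9 of these in each WT library and 9 and 11 in the cKO libraries, so the longer cKO regions added few. The pairs before Ifit3, Ifit3b and Ifit1 were inside H3K27ac regions in all 4 libraries. The match near the second start of Ifit1bl1 was inside regions of both cKO libraries and no WT library.

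The wider interferon pathway was read with the same rule, from 11 receptor and signalling genes and 24 of 25 listed interferon-induced effectors found among protein-coding genes. For H3K27ac, 18 of the 24 effectors were higher in both cKO libraries and 0 lower, among them Isg15, Rsad2, Mx1, Oas2 and Oasl1. For H3K36me3, 22 of the 24 had a region, 15 were higher and 0 lower. Isg15, Oasl1 and Ifi44 had H3K36me3 regions in both cKO and no WT library, a pattern of 1.22% of genes. Of the receptor and signalling genes, 7 of 11 were higher for H3K27ac, among them Ifnar1, Tyk2, Irf7, Usp18 and Socs1, and 2 lower (Jak1 and Irf1). Over both lists, Ifi44 had H3K27ac in both cKO and no WT library and Irf1 the reverse, against 3.63% and 3.79% of genes. For H3K36me3, 10 of the 11 receptor and signalling genes had a region. Of these, 1 was higher (Usp18, which dampens the receptor) and 3 lower (Ifnar1, Irf9 and Irf1). Over all genes tested, 17.4% were higher and 38.2% lower for H3K27ac, and 7.85% higher and 37.7% lower for H3K36me3, so the H3K36me3 counts of the receptor and signalling genes lay near the background.

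The genes on either side of the cluster did not share the higher H3K27ac length. In Lipa, a lysosomal lipase gene 23219 bp before Ifit2, H3K27ac covered 66.7% ± 4.06 of the window in WT and 42.7% ± 2.45 in cKO. In Slc16a12, a transporter gene 18393 bp past Ifit1, it covered 4.58% ± 1.56 and 0.710% ± 0.160. Both were lower in both cKO libraries (SD, n = 2 each). For H3K36me3, Lipa was higher in cKO, at 62.0% ± 9.49 and 85.4% ± 0.218, and Slc16a12 had no region.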

How the data were processed

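Paired-end reads of 25 bp were aligned by the authors to mm10 with Bowtie2 v2.3.4.1 in local mode, and regions were called per library with HOMER against IgG. Per the file headers, peaks of 500 bp at least 1000 bp apart had to exceed the control 4-fold, with a Poisson p-value of 0.0001. The deposited lists hold region bounds in bp and a constant score, so signal could not be weighed. WT, cKO and H3.3-HA libraries had separate IgG controls, which therefore enter each genotype difference. The 5 IgG samples are not analysed here. Processing notes also name cutadapt and deepTools, without versions.

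Starts were converted to 1-based positions. Genes came from GENCODE M21 and promoters from RefSeq (GRCm38.p6). A gene's window was its body plus 5 kb upstream, and 1 bp of overlap counted as a region. Groups of 2 libraries were compared by whether they overlapped and by two-sided exact permutation tests in scipy 1.17.1 (Python 3.11.15, numpy 2.4.6), whose smallest p is 0.333. Shares of all protein-coding genes used the same rule. Sequences that occur once were counted as 25-base stretches on chromosomes 1 to 19, X and Y. Promoters were aligned end to end with Biopython, with free end gaps. The rules were tested on simulated lists. Named genes were the members, Ifit1bl2, the flanking genes and an interferon list. Some genes of the lists are not reported by name here. Members and lists were chosen with earlier results of these data known. Alternative windows, widths, gaps and library sets are given at the end.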

Additional observations from a re-analysis of the deposited data

How the results depend on the processing

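The higher called length in cKO kept its direction under each alternative run. Runs with single libraries left out could not reverse it, since the groups did not overlap. The H3K27ac difference over the cluster lay between 13.4 and 14.8 kb under other windows, widths, list sizes and gaps, and between 13.0 and 13.9 kb with single libraries left out. For H3K36me3 the ranges were 11.7 to 16.1 kb and 12.3 to 18.4 kb. The number of members higher in cKO stayed at 4 or 5 of 5 for H3K27ac, and for H3K36me3 at 3 to 5, except within 1 kb of the start sites, where it was 0 because no H3K36me3 region lies there. The H3K36me3 count of 5 came with 5 kb on both sides, where the window of Ifit1bl1 reached the regions at the end of Ifit3.

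Presence calls moved more. Members with H3K27ac in cKO alone went from 0 to 1 within 1 kb of the start sites (Ifit2) and to 2 with regions of at least 1 kb (Ifit3 and Ifit3b). Members with H3K36me3 in cKO alone went from 1 to 0 within 1 kb of the start sites, to 2 with regions of at least 1 kb, to 2 with equal list sizes, and between 1 and 2 with single libraries left out. Members with H3.3-HA in both libraries went from 4 to 2 with regions of at least 1 kb. The share of genes higher in cKO was 25.9% for H3K27ac and 10.9% for H3K36me3 among genes no longer than the longest member.

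With the replicate block, which compares same-numbered libraries, the differences were 13.4 kb and 15.3 kb (exact p = 0.5 for each, the smallest possible). These lengths equal the main differences by arithmetic, since the mean of paired differences is the difference of the means. The block gave 5 members higher for H3K27ac and 4 for H3K36me3, and 0 and 1 in cKO alone. Deviations of same-numbered libraries correlated at -0.10 for H3K27ac and 0.10 for H3K36me3 across genes. Crossed numbers, added after the data were seen, gave 4 members higher for H3K27ac and 0 in cKO alone. The lists hold no read counts, so presence against absence may be a small difference in signal.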
